A study of Caenorhabditis elegans with 60 samples.

Results

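The eggshell and egg activation genes of Caenorhabditis elegans described here are 10 genes chosen by sequence name, out of 22844 entries in the gonad mRNA table. They are egg-1 (B0244.8), egg-2 (R01H2.3), egg-3 (F44F4.2), egg-4 (T21E3.1), egg-5 (R12E2.10), cbd-1 (H02I12.1), cpg-1 (C07G2.1), cpg-2 (B0280.5), cpg-3 (R06C7.4) and chs-1 (T25G3.2). All 10 were listed in the mRNA table and passed its filter on low values. The small RNA tables of gonads, of periodate oxidation and of the HRDE-1 and WAGO-1 immunoprecipitates (IPs) listed 9 of them, without cpg-1. Those 9 carry the authors' class of CSR-1 loci there and passed the filter in each fit.

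The oocytes of this worm pass through the spermatheca, are fertilized, and within minutes build a layered eggshell of a vitelline layer, chitin and chondroitin proteoglycans around the zygote. Most parts of the shell and of the egg activation machinery are made beforehand by the mother, so their mRNAs gather in the adult germline. EGG-1 and EGG-2 are related transmembrane proteins with LDL receptor repeats on the oocyte surface and are needed for sperm to enter. EGG-3, EGG-4 and EGG-5 resemble tyrosine phosphatases without activity. They hold the kinase MBK-2 at the cortex until the meiotic divisions. CBD-1 is a chitin-binding protein of the vitelline layer, CPG-1, CPG-2 and CPG-3 are chondroitin proteoglycans, and CHS-1 is the chitin synthase of the eggshell.

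The study deals with HENN-1, the enzyme that methylates the last nucleotide of some classes of small RNA. The genes were followed as mRNA and as antisense 22G-RNAs, small RNAs of about 22 nucleotides that RNA-dependent RNA polymerases copy from mRNA. CSR-1 is an Argonaute that binds 22G-RNAs of expressed germline genes, whereas WAGO-1 and HRDE-1 are Argonautes known for 22G-RNAs of silenced loci. Of the 60 samples of the series, 28 entered the comparisons below.

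The gonad samples were dissected gonads of gravid adults, wild type (N2) or henn-1(pk2295) III, after 68 to 70 h at 20 C. Each genotype gave 3 mRNA libraries and 3 small RNA libraries. For the gonad small RNA samples, the handling note speaks of whole worms, while title and source name give dissected gonads. The oxidation set held whole animals, wild type or rde-1(ne219) V, with 3 untreated and 3 periodate-treated libraries each. RDE-1 is the Argonaute through which double-stranded RNA from outside sets off RNAi. Periodate damages the end of a small RNA that lacks the methyl group, so that such RNAs are lost from the library. The source names of this set give L4 larvae at 52 h for untreated and gravid adults at 68 h for oxidized samples, while the descriptions call both L4. Treatment and labelled stage therefore cannot be told apart in any oxidation result below. The IP set came from gravid adults at 68 h, with 1 IP and 1 input library each for FLAG::hrde-1 and for a strain with (GFP + loxP + 3xFLAG)::wago-1 that also carries mut-16::mCherry. No IP from untagged animals was analysed here. Nothing in the labels shows that replicates came from separate cultures. The p-values below thus take in the spread of these libraries alone, part of which may be technical.

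The mRNA of henn-1 itself was 2192, 2240 and 2298 in wild type gonads and 234, 249 and 229 in henn-1 gonads. Gonad small RNA libraries held 4215264 to 8745475 reads of listed features and oxidation libraries 6311071 to 13613629. These were recovered from the steps of the deposited values, and reads outside the listed features are not known. The depth of the mRNA and IP libraries is unknown. The mRNA libraries held high levels of oocyte markers, summing to 60477 to 73365 over 11 genes, next to 124.7 to 599.1 for 8 intestine markers and 65.9 to 223.6 for 5 epidermis markers, of which 2 were at 0 in all 6 libraries. Wild type library 2 and henn-1 library 3 had the highest sums of 19 sperm markers in their groups (791.7 and 1238, against 451.3 to 677.8 in the other 4 libraries).

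The first question was how abundant the genes were in wild type gonads as mRNA and as 22G-RNAs. Levels of different genes are not compared on their own, since no transcript lengths were given. The ratio of 22G-RNA to mRNA of the same gene removes most of the effect of length and was set against 3522 CSR-1 loci with both values. It is in units of 2 tables that were normalized separately, so only its rank among loci has a meaning.

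Together the 10 mRNAs took 1.02% of all values in the wild type mRNA table. The median CSR-1 locus had a 22G-RNA to mRNA ratio of 0.158, with quartiles of 0.0811 and 0.322. The egg activation genes egg-4 and egg-5 lay above the upper quartile, with ratios of 0.571 (87.6% of CSR-1 loci were at or below it) and 0.444 (82.5%). Their partner egg-3 had a ratio of 0.0350 (6.05%). The surface receptors egg-1 and egg-2 had 0.0889 (28.3%) and 0.0805 (24.7%). All 4 shell genes with values lay below the lower quartile: cbd-1 had 0.0375 (6.81%), chs-1 0.0276 (3.89%), cpg-2 0.0119 (0.852%) and cpg-3 0.0112 (0.738%). The 9 genes thus spanned most of the range of CSR-1 loci, but only egg-4 and egg-5 lay above the median. Genes of the same role did not always lie together.

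**Figure D1:**
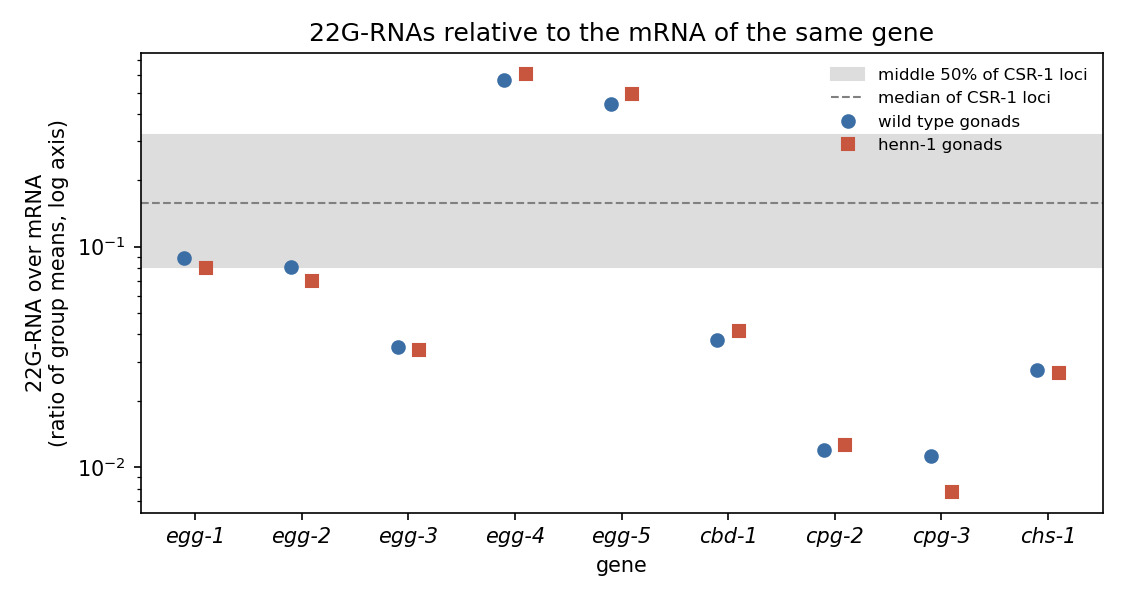
Ratio of 22G-RNA to mRNA (vertical axis, log scale, ratio of the means of 3 libraries each) for 9 genes in wild type (circles) and henn-1 (squares) gonads. The grey band spans the quartiles of 3522 CSR-1 loci in wild type (0.0811 to 0.322) and the dashed line is their median (0.158). egg-4 and egg-5 lie above the band, and cpg-2 and cpg-3 lie lowest.

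EGG-4 and EGG-5 are near copies, as are EGG-1 and EGG-2 to a lesser degree, and the counting may have split reads between them. The 22G-RNA ratio of egg-4 to egg-5 stayed within 0.926 to 0.962 over the 6 gonad libraries, while their mRNA ratio ranged from 0.692 to 0.814. For egg-1 over egg-2 the 22G-RNA ratio was 1.40 to 1.48 and the mRNA ratio 1.23 to 1.40. Whether reads were split was not tested, so the values of each gene in a pair are uncertain.

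The next question was whether the mRNAs differ in gonads without henn-1. All 10 mRNAs had lower means in henn-1 gonads, by 3.60% to 15.5%, and 8 of 10 were called lower (limma, adjusted p under 0.05). Of all 8750 genes tested, 12.4% were called lower. None of the 10 was called higher, against 7.44% of all genes. The median log2 difference of the 10 genes was -0.17, and that of all genes was 0.02. In bulk RNA, fewer cells of a type and less RNA per cell cannot be told apart.

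Of the surface receptor genes, egg-1 mRNA was 9216, 8719 and 8321 in wild type and 8021, 8089 and 7652 in henn-1 gonads. The groups did not overlap, but the difference missed the threshold (log2 -0.14, SE 0.05, adjusted p = 0.0518). The mRNA of egg-2 went from 6597, 6867 and 6782 to 6255, 6256 and 6003 (log2 -0.13, SE 0.04, adjusted p = 0.035). All 3 henn-1 libraries lay below every wild type library for egg-2, and this gene passed the test.

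Among the egg activation genes, egg-4 mRNA was 7932, 7925 and 7779 in wild type and 6927, 7080 and 6933 in henn-1 gonads (log2 -0.17, SE 0.03, adjusted p = 0.00945). This was the lowest adjusted p of the 10 genes, and its libraries were tightly grouped. The mRNA of egg-5 fell from 10973, 10952 and 10215 to 10013, 9074 and 8523 (log2 -0.22, SE 0.06, adjusted p = 0.027). In contrast, egg-3 mRNA was 6748, 6677 and 6646 in wild type and 6514, 6649 and 6185 in henn-1 gonads (log2 -0.05, 95% interval -0.14 to 0.03, adjusted p = 0.343). It was the only one of the 10 whose groups overlapped: henn-1 library 2 lay within the wild type range.

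The genes of the shell itself were all called lower. The vitelline layer gene cbd-1 had 48536, 47929 and 51524 in wild type and 42221, 41971 and 40809 in henn-1 gonads (log2 -0.24, SE 0.05, adjusted p = 0.0103). This was the largest log2 difference of the 10. The mRNA of cpg-1 fell from 20451, 19616 and 20224 to 17963, 17884 and 16427 (log2 -0.21, SE 0.05, adjusted p = 0.0146). That of cpg-2 fell from 27193, 25750 and 25619 to 23149, 23603 and 22906 (log2 -0.17, SE 0.04, adjusted p = 0.0206). Both proteoglycan genes, which act with chitin in the shell, thus lost between 11.3% and 13.3% of their mean. The mRNA of cpg-3 fell from 10095, 9340 and 9096 to 8568, 8595 and 7606 (log2 -0.20, SE 0.06, adjusted p = 0.0332). The chitin synthase mRNA chs-1 fell from 17766, 17996 and 17791 to 16139, 16198 and 15936 (log2 -0.15, SE 0.04, adjusted p = 0.0195). In these 5 genes no henn-1 library reached the lowest wild type library. Over all 10 genes, 9 had groups that did not overlap and were lower in henn-1, as did 21.3% of all genes.

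**Figure D2:**
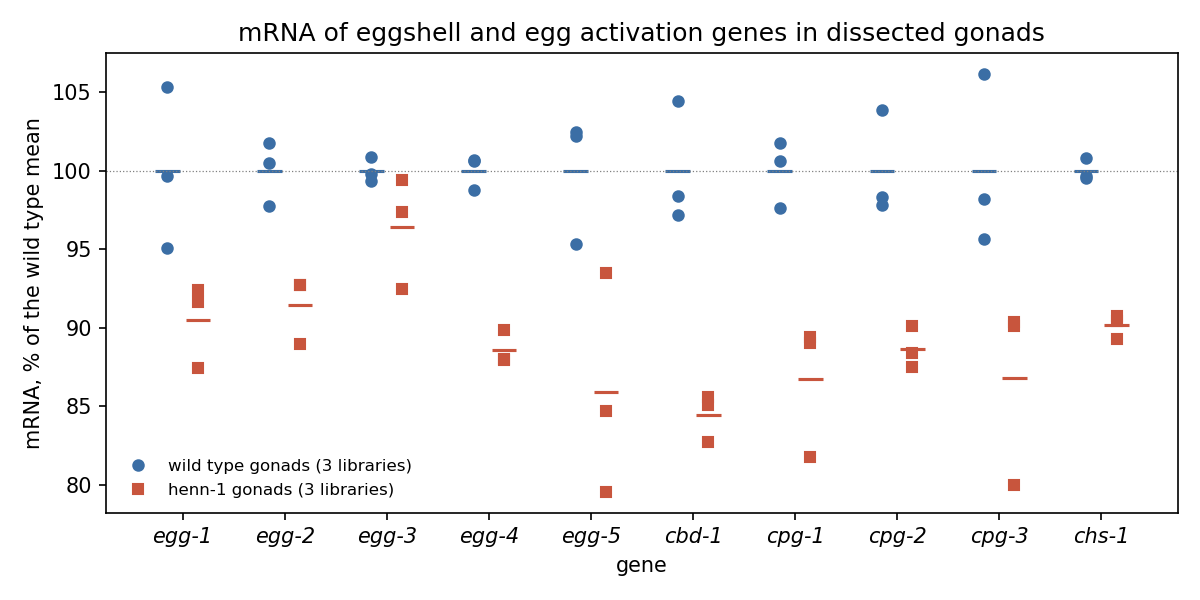
mRNA of each gene as a percentage of its wild type mean (vertical axis, not starting at 0) in 3 wild type (circles) and 3 henn-1 (squares) gonad libraries; short lines are group means. The henn-1 means lie 3.60% (egg-3) to 15.5% (cbd-1) below wild type, and the groups overlap for egg-3 alone.

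Summed over the 10 genes, the mRNA values were 165507, 161772 and 163997 in wild type and 145770, 145398 and 138981 in henn-1 gonads. Some markers of oocytes and of earlier germ cells were also lower. Oocyte markers summed to 73365, 70172 and 70379 in wild type and 62955, 63598 and 60477 in henn-1 gonads, and 4 of 11 were called lower (median log2 -0.15). Of 9 markers of mitotic and pachytene germ cells, 3 were called lower (median -0.18), while syp-2 (0.09), him-3 (0.04) and syp-1 (0.03) had higher values that did not pass. Muscle markers moved the other way: 7 of 9 were called higher (median 0.80), with sums of 1093, 997 and 1107 in wild type and 1641, 1554 and 2244 in henn-1 gonads. Of 4 tested markers of gonad sheath and spermatheca, inx-8 and inx-9 were called higher and fln-1 lower. None of 10 tested sperm markers (median 0.51), 6 intestine markers (median -0.58) or 1 epidermis marker (0.60) was called by limma. When each library was scaled to the oocyte and germ cell markers, none of the 10 genes was called, with log2 differences between -0.08 and 0.11. That scaling put the median of all genes at 0.18, and 0.649% of all genes were called lower. The part of the other cell types in these differences was not tested.

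The count of called genes also depended on single libraries. Leaving out wild type library 2 gave 3, leaving out wild type library 3 gave 2 and leaving out henn-1 library 2 gave 3, and the share of all genes called lower was 6.09%, 4.91% and 5.15% in the same fits. Without both libraries richest in sperm transcripts, cpg-1 and cbd-1 were called, and 6.85% of all genes were called lower. The cbd-1 call held in each of these fits and under TMM and library total scaling, but not with scaling to the germline markers. Scaling to library totals called 6 of the 10 and raised the share of higher among all called genes from 37.6% to 58.4%.

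Over the 6 gonad libraries, the 10 mRNAs varied together, with Pearson r between any pair of 0.675 to 0.990. Outside the 10, the mRNAs most like their mean were jmjd-1.2 (r = 0.997), rml-1 (0.997) and hrpc-1 (0.996), among 4365 candidates, of which 110 reached 0.95. These correlations describe 6 libraries that fall into 2 genotypes and share their scaling.

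Counts for other genes of the same processes stand beside 12.4% of all genes called lower and 7.44% called higher. Of 7 genes that make the chitin precursor, 1 was called lower, gfat-2 (log2 -0.20, SE 0.04, adjusted p = 0.0115), which encodes the enzyme of the entry step into hexosamine synthesis. Of 9 chondroitin synthesis genes, 3 were called lower, namely sqv-5 (-0.22), sqv-6 (-0.17) and mig-22 (-0.15). Of 10 matched egg activation partners and subunits of the anaphase-promoting complex, mat-1 (-0.24), mat-3 (-0.25) and the separase gene sep-1 (-0.20) were called lower. The proteoglycan gene cpg-4 (-0.21) was 1 of 2 tested further cpg genes and was called lower. Of 7 vitelline layer and permeability barrier genes, 2 were called higher and none lower, the fatty acid synthase gene fasn-1 (log2 0.38, adjusted p = 0.0155) and perm-2 (0.25, adjusted p = 0.0382). Of the other 5, dgtr-1 (-0.20), emb-8 (-0.15) and perm-1 (-0.01) had lower values that did not pass. The medians of these lists were -0.09, -0.02, -0.10, -0.05 and 0.04 in this order, beside 0.02 for all genes. When libraries were scaled to the oocyte and germ cell markers, none of these lists had a gene called lower. The counts called higher were then 0, 3, 1, 1 and 5 in the same order, and 2703 of 8778 genes in all were called higher.

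The 22G-RNAs of the genes were compared in the same kind of gonads. Of 9 genes, 4 were called lower in henn-1 gonads (cpg-3, egg-2, egg-1 and chs-1) and none higher. Among all CSR-1 loci, 5.05% were called lower and 8.95% higher, and among all 9456 small RNA features 15.9% were lower. The median log2 difference was -0.10 for the 9 genes and 0.04 for CSR-1 loci.

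The 22G-RNAs of cpg-3 changed most, from 107, 100 and 112 to 62.1, 59.5 and 70.1 (log2 -0.73, SE 0.13, adjusted p = 0.00088). The henn-1 mean was 60.1% of wild type, and 0.508% of CSR-1 loci had a difference as low or lower. These values stood on 96 to 149 reads per wild type library and 85 to 105 per henn-1 library. The mRNA of cpg-3 was at 86.8% of wild type, so the ratio of 22G-RNA to mRNA went from 0.0112 to 0.00774.

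Both sperm entry genes changed alike, but reads may have been split between them, which was not tested. The 22G-RNAs of egg-1 fell from 777, 765 and 792 to 664, 616 and 623 (log2 -0.29, SE 0.06, adjusted p = 0.00162). Those of egg-2 fell from 554, 535 and 541 to 449, 420 and 425 (log2 -0.33, SE 0.06, adjusted p = 0.00105). Neither gene had a henn-1 library near the wild type range, and 4.83% and 3.67% of CSR-1 loci had differences as low. The 22G-RNAs of chs-1 fell from 503, 501 and 473 to 446, 428 and 415 (log2 -0.20, SE 0.07, adjusted p = 0.0268). That call was lost without wild type library 1 or 2 or without henn-1 library 2 or 3 (adjusted p = 0.077 to 0.0916).

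The other 5 genes overlapped between genotypes and were not called. Among CSR-1 loci, 10.2% were lower in henn-1 without overlap. The 22G-RNAs of egg-4 were 4684, 4363 and 4440 in wild type and 4410, 4124 and 4194 in henn-1 gonads (log2 -0.08, 95% interval -0.22 to 0.05). Those of egg-5 were 4870, 4616 and 4771 against 4655, 4453 and 4424 (-0.08, -0.20 to 0.05). For cbd-1 the values were 1927, 1787 and 1842 against 1798, 1753 and 1649 (log2 -0.10, -0.23 to 0.04). The mRNA of cbd-1, in contrast, was called lower in the mRNA fit. The remaining pair, cpg-2 and egg-3, had log2 differences of -0.09 each, with intervals of -0.31 to 0.13 and -0.28 to 0.09.

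**Figure D3:**
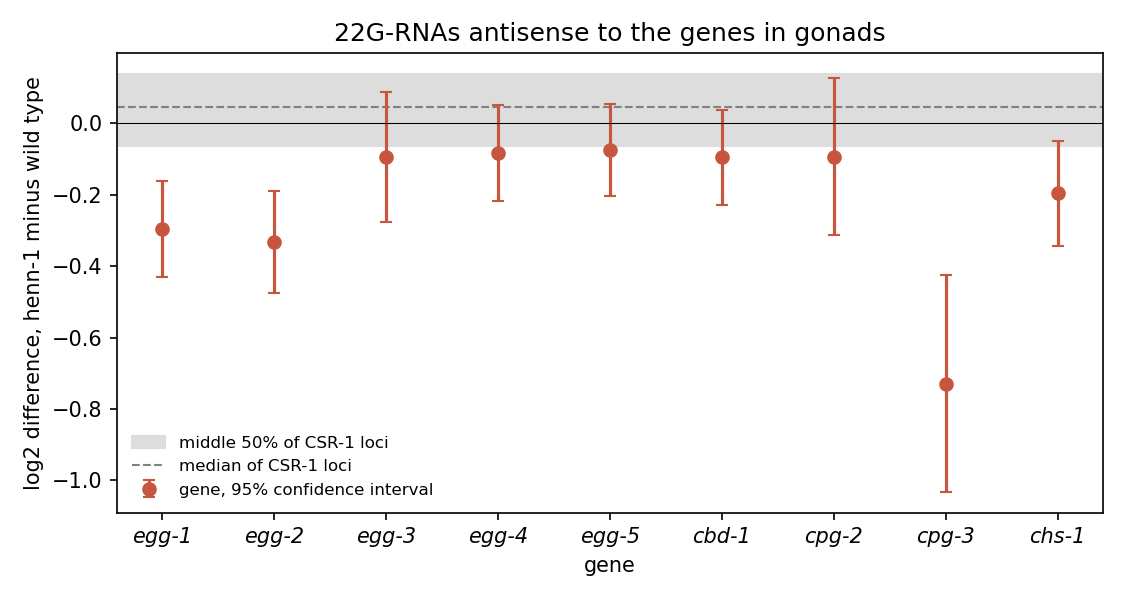
log2 difference of 22G-RNAs, henn-1 minus wild type gonads (vertical axis), for 9 genes with 95% confidence intervals from limma (3 libraries per genotype). The grey band spans the quartiles of 3542 CSR-1 loci and the dashed line their median (0.04). cpg-3 lies lowest at -0.73, and egg-1, egg-2 and chs-1 are the other genes whose intervals lie below 0.

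How many of the 9 were called depended on the scaling, because the whole class shifted with it. TMM factors called all 9, with a median of -0.36, but moved the median of CSR-1 loci to -0.21 and called 46.4% of them lower. Library totals called 7 (median of CSR-1 loci -0.04). When each library was scaled to the CSR-1 loci, the same 4 genes were called: cpg-3 (-0.77, adjusted p = 0.00061), egg-2 (-0.37, 0.000503), egg-1 (-0.33, 0.000677) and chs-1 (-0.24, 0.0115). That fit called 7.51% of CSR-1 loci and 17.6% of all features lower. Relative to its class, each of the other 5 was between 0.12 and 0.14 lower on the log2 scale by its point estimate (adjusted p = 0.0781 to 0.273). Oocyte markers also moved in their 22G-RNAs: 6 of 11 were called lower (median -0.18). Of 8 mitotic and pachytene markers none was called by limma (median -0.01). The part of cell makeup in these differences was not tested.

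Among genes of the same processes, 2 of 6 tested chitin precursor genes had fewer 22G-RNAs, C36A4.4 (log2 -0.62, adjusted p = 0.000678) and pgm-3 (-0.37, adjusted p = 0.00334). Of 8 tested chondroitin synthesis genes, sqv-4, which encodes UDP-glucose dehydrogenase, was called lower (-0.35, adjusted p = 0.0023). The acetyl-CoA carboxylase gene pod-2, 1 of 4 tested permeability barrier genes, carries the WAGO class and had the largest difference, from 3137 ± 80.2 to 1370 ± 40.6 (SD, n = 3; log2 -1.19, limma adjusted p = 6.27e-08). The anaphase-promoting complex gene mat-1 was called higher (0.20, adjusted p = 0.0335), 1 of 8 tested partners. With scaling to the CSR-1 loci that call was lost. The counts called lower were then 5 chitin precursor, 1 chondroitin synthesis and 2 permeability barrier genes. In that fit 17.6% of all features and 7.51% of CSR-1 loci were called lower. Neither of 2 tested further cpg genes was called by limma.

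Periodate treatment asked whether the 22G-RNAs carry a protected end. In wild type animals, 7 of 9 genes were called lower after oxidation, with the exceptions of cpg-3 and egg-3. Loss on oxidation was the rule for the class: 91.6% of 3376 CSR-1 loci and 42.9% of all features were called lower. The median log2 difference was -2.39 for the 9 genes and -2.37 for CSR-1 loci.

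The 22G-RNAs of egg-1 fell most, from 173, 212 and 244 to 28.4, 35.1 and 24.1 (log2 -2.80, SE 0.29, adjusted p = 5.54e-05), which left 13.9% of the untreated mean. Those of egg-5 fell from 675, 829 and 1100 to 206, 114 and 104 (log2 -2.65, SE 0.29, adjusted p = 8.31e-05). Its near copy egg-4 fell from 642, 854 and 1117 to 227, 145 and 114 (-2.45, SE 0.29, adjusted p = 0.000129). All oxidized libraries of these genes lay far below the untreated ones. The values of cbd-1 were 785, 949 and 1049 against 216, 194 and 128 (-2.39, SE 0.22, adjusted p = 3.37e-05). The values of egg-2 were 203, 198 and 249 against 53.2, 52.7 and 22.6 (-2.40, SE 0.37, adjusted p = 0.000505). The loss of these genes was of the size seen over the class, since 26.8% to 49.1% of CSR-1 loci had differences as low or lower. The values of cpg-2 (-2.29, adjusted p = 0.00127) and chs-1 (-2.07, adjusted p = 0.000364) also did not overlap between groups. All genes but egg-3 were lower without overlap, as were 93.8% of CSR-1 loci.

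The proteoglycan gene cpg-3 stood apart from these. Its 22G-RNAs were 81.1, 89.5 and 99.1 in untreated and 76.2, 74.4 and 54.5 in oxidized wild type animals (log2 -0.40, 95% interval -1.03 to 0.23, adjusted p = 0.207). The oxidized mean was 76.1% of the untreated one, and 98.4% of CSR-1 loci had a difference as low or lower. The groups did not overlap, yet the gap was small beside their spread. The values rested on 90 to 135 reads per untreated and 43 to 72 per oxidized library. When libraries were scaled to the CSR-1 loci, cpg-3 was called higher after oxidation (log2 1.80, adjusted p = 0.00044). In that fit 234 of 3277 CSR-1 loci were called higher.

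The egg activation gene egg-3 was also near the upper end of the class. Its 22G-RNAs were 41.4, 92.3 and 73.4 in untreated and 44.3, 33.1 and 24.9 in oxidized animals (log2 -0.96, 95% interval -1.94 to 0.02, adjusted p = 0.0671). The groups overlapped through untreated library 1 and oxidized library 1, and the gene was called lower without either (log2 -1.28 and -1.16, adjusted p = 0.0342 and 0.0389). The oxidized libraries held 25 to 32 reads of egg-3, beside 16 to 34 of egg-1, so both values rest on few reads. The SE was 0.43 for egg-3 and 0.29 for egg-1. The untreated libraries of egg-3 also spread more (CV 37.2%, beside 16.9% for egg-1). Scaled to the CSR-1 loci, it was called higher after oxidation (1.22, adjusted p = 0.0230).

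**Figure D4:**
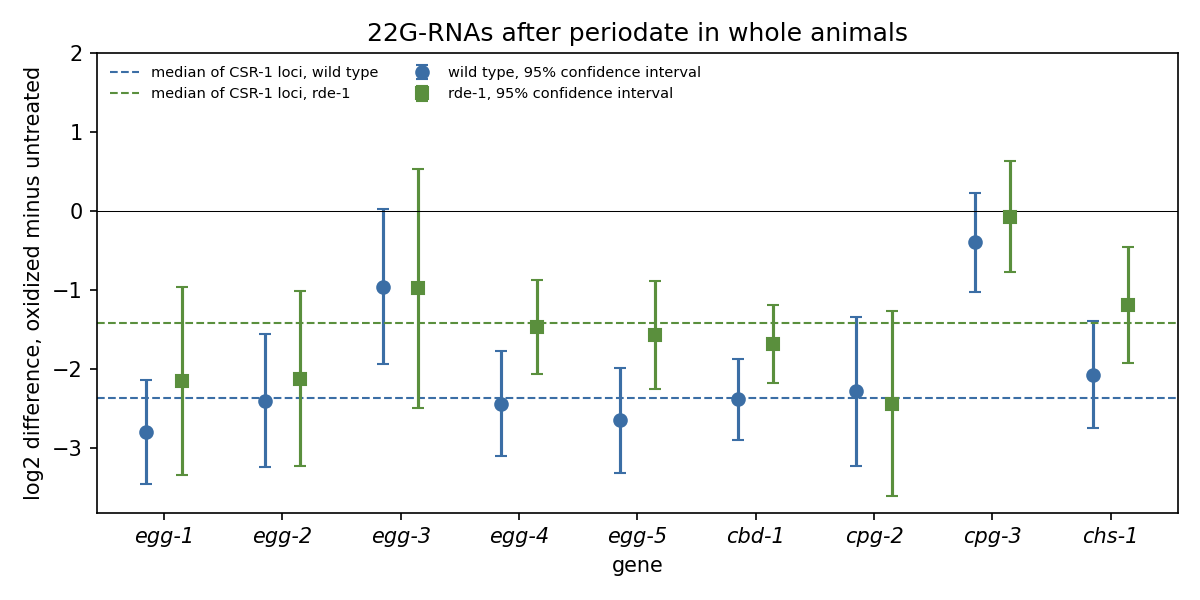
log2 difference of 22G-RNAs, oxidized minus untreated whole animals (vertical axis), for 9 genes in wild type (circles) and rde-1 (squares), with 95% confidence intervals from limma (3 libraries per group). Dashed lines are the medians of CSR-1 loci, -2.37 in wild type and -1.41 in rde-1. cpg-3 lies nearest to 0 in both genotypes.

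The rde-1 animals gave the same order at the upper end. Again 7 of 9 genes were called lower after oxidation and cpg-3 and egg-3 were not, while 67.4% of 3404 CSR-1 loci and 26% of all features were called lower. The 22G-RNAs of cpg-3 were 98.5, 101 and 118 in untreated and 94.7, 117 and 91.5 in oxidized rde-1 animals (log2 -0.07, 95% interval -0.78 to 0.63, adjusted p = 0.854). The groups overlapped, the oxidized mean was 95.3% of the untreated one, and 97.4% of CSR-1 loci had a difference as low or lower. Scaled to the CSR-1 loci, cpg-3 was called higher in rde-1 animals as well (1.27, adjusted p = 0.0176), and it was the only one of the 9 genes called in that fit. There, 107 of 3390 CSR-1 loci were called higher.

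The 22G-RNAs of egg-3 were 47.9, 69.0 and 101 against 42.5, 12.8 and 74.4 in rde-1 animals (log2 -0.98, 95% interval -2.50 to 0.53, adjusted p = 0.23). Oxidized library 2 held 11 reads of it, the fewest of any gene and library here. The largest loss was at cpg-2, from 148, 230 and 278 to 81.2, 30.4 and 22.2 (-2.44, SE 0.52, adjusted p = 0.00424). The differences of the other 6 genes were -2.16 for egg-1, -2.13 for egg-2, -1.69 for cbd-1, -1.57 for egg-5, -1.47 for egg-4 and -1.19 for chs-1 (adjusted p = 0.000306 to 0.0134). Of these 7 genes, all but chs-1 lay below the class median of -1.41. From 7.52% (cpg-2) to 68.04% (chs-1) of CSR-1 loci had differences as low or lower. The groups of the 7 genes did not overlap, as for 77.3% of CSR-1 loci. The chs-1 call was lost without untreated library 2 or 3 (adjusted p = 0.052 and 0.0569).

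Single oxidized rde-1 libraries ranked the sperm entry genes differently. The values of egg-1 were 41.6, 23.4 and 94.1 in libraries 1, 2 and 3, and those of egg-2 were 127, 47.9 and 31.6. Their ratio thus ran from 0.328 to 2.97 over the rde-1 libraries, against 0.533 to 1.07 over the wild type ones. Reads were few, from 20 to 110 for egg-1 and from 37 to 131 for egg-2.

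The difference between genotypes was tested directly, as the oxidation effect in rde-1 minus that in wild type. None of the 9 genes was called by limma, edgeR or DESeq2. Of all 12248 features, 0.0245% were called with a weaker loss or a rise in rde-1 and 0.00816% with the opposite sign. That background depended on single libraries. Without wild type oxidized library 1, 321 of 12226 features and 152 of 3411 CSR-1 loci were called higher. Without wild type oxidized library 2 these were 44 of 12192 and 27 of 3408. Leaving out any other library gave at most 1 feature called higher. At an unadjusted p under 0.05, egg-4 (0.97, 95% interval 0.06 to 1.89, adjusted p = 0.296) and egg-5 (1.08, 0.10 to 2.07, adjusted p = 0.286) passed, as did 15.7% of all features. Both values were close to the median of CSR-1 loci, 0.93. For cpg-3 the difference was 0.33 with an interval of -0.524 to 1.179, and for egg-3 it was -0.02 with -1.84 to 1.80. Such intervals leave room for sizable differences in either direction.

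Most genes of the same processes also had fewer 22G-RNAs after oxidation, as did 91.6% of CSR-1 loci and 42.9% of all features in wild type. In wild type animals, 4 of 6 chitin precursor genes, 5 of 7 chondroitin synthesis genes, 4 of 4 permeability barrier genes, 8 of 8 egg activation partners and 2 of 2 further cpg genes were called lower and none higher. The lowest adjusted p in the first list was at gfat-2 (-2.39), the WAGO class locus K06B9.2 (-1.06) and pgm-3 (-2.97). In the second it was at mig-22 (-2.71), sqv-4 (-3.19) and sqv-1 (-4.52), and among the partners at mat-1 (-2.05), emb-27 (-2.63) and emb-30 (-2.49). In the permeability list emb-8 (-2.25), perm-1 (-2.78) and the WAGO class locus pod-2 (-0.52) came first, and the further cpg genes were cpg-4 (-2.31) and cpg-8 (-2.92). In rde-1 animals the counts were 4 of 6, 3 of 8, 3 of 4, 8 of 8 and 1 of 2, beside 67.4% of CSR-1 loci and 26% of all features. The chitin precursor gene C36A4.4 had a log2 difference of 0.11 in wild type and 0.17 in rde-1 animals and was called in neither (adjusted p = 0.657 and 0.557). In rde-1 animals, gfat-2 (-1.37), sqv-5 (-3.81), emb-8 (-1.30), mat-3 (-1.95) and cpg-4 (-1.39) had the lowest adjusted p of their lists.

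The last question was whether the 22G-RNAs of the genes were found with HRDE-1 or WAGO-1. With 1 library per group there is no test, and ratios are of IP plus 1 over input plus 1. In the HRDE-1 IP, 6 of 9 genes were at or below 0.5 of their input and none at or above 2. Of 2595 CSR-1 loci 17% were at or below 0.5, as were 10.3% of all loci. The median ratio was 0.58 for CSR-1 loci and 1.37 for WAGO loci.

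The lowest HRDE-1 ratio was at cpg-2, with 45.8 in the input and 18.6 in the IP (ratio 0.42). The activation genes egg-5 (308 and 142, ratio 0.46), egg-4 (292 and 138, ratio 0.47) and egg-3 (20.5 and 9.36, ratio 0.48) followed, with egg-1 (57.8 and 27.1, ratio 0.48) and chs-1 (51.6 and 24.9, ratio 0.49). These 6 lay close together and just under 0.5, so a small shift of scale moves the count: with a pseudocount of 5 it was 3. The values of cbd-1 were 154 and 84.8 (ratio 0.55) and those of egg-2 were 42.7 and 28.8 (ratio 0.68). For cpg-3 the values were 15.8 and 16.0, a ratio of 1.01, and 94.8% of CSR-1 loci were at or below it.

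In the WAGO-1 IP, 5 of 9 genes were at or below 0.5 and none at or above 2, next to 34.8% of 2421 CSR-1 loci and 22.3% of all loci at or below 0.5. The genes were spread more widely than for HRDE-1. The lowest were cpg-2 (24.6 in the input, 4.61 in the IP, ratio 0.22) and egg-1 (37.96 and 8.16, ratio 0.24). The near copies egg-4 (196 and 54.6, ratio 0.28) and egg-5 (204 and 58.0, ratio 0.29) were next, followed by cbd-1 (118 and 52.6, ratio 0.45). The other 4 genes lay above the class median of 0.67: egg-3 (14.0 and 9.80, ratio 0.72), cpg-3 (19.9 and 16.7, ratio 0.85), egg-2 (34.4 and 32.6, ratio 0.95) and chs-1 (33.7 and 33.3, ratio 0.99). The pair egg-1 and egg-2, with like changes in henn-1 gonads, thus had WAGO-1 ratios of 0.24 and 0.95.

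**Figure D5:**
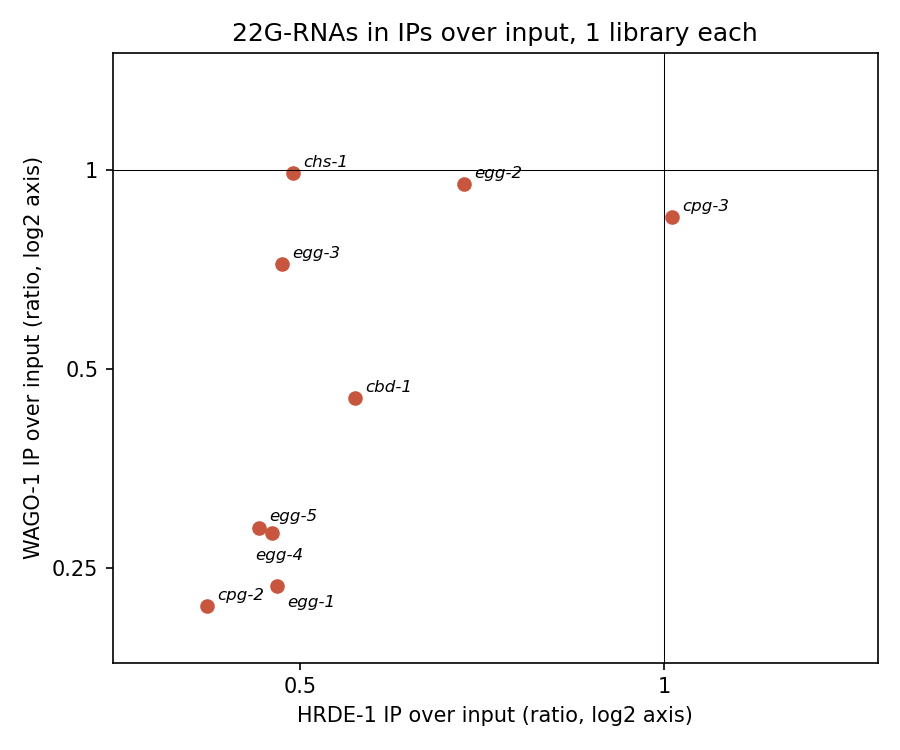
Ratio of IP to input for 22G-RNAs of 9 genes with HRDE-1 (horizontal axis) and WAGO-1 (vertical axis), both on log2 axes, 1 library each. Thin lines mark a ratio of 1. cpg-2 lies lowest in both IPs (0.42 and 0.22), and cpg-3 lies at 1.01 and 0.85.

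Set side by side, cpg-3 was the gene with the lowest 22G-RNA to mRNA ratio of the 9, the largest relative loss of 22G-RNAs in henn-1 gonads, the smallest loss on oxidation in both genotypes and the highest HRDE-1 ratio. Its input values in the IP set were also among the lowest, at 15.8 and 19.9. The other proteoglycan gene with small RNA values, cpg-2, had a ratio of 22G-RNA to mRNA almost as low (0.0119), but its 22G-RNAs were not called in henn-1 gonads, fell on oxidation and had the lowest ratios in both IPs. Outside the 9, the CSR-1 locus C36A4.4 of chitin precursor synthesis also had fewer 22G-RNAs in henn-1 gonads (log2 -0.62). It too was not called on oxidation (0.11 in wild type and 0.17 in rde-1), so this pairing is not particular to cpg-3. These are descriptions of 1 gene each, and the difference between cpg-3 and cpg-2 was not tested.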

How the data were processed

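The deposited gonad and oxidation tables hold a normalized signal per feature, named as DESeq2 counts by the authors. The deposited HRDE-1 and WAGO-1 table holds a signal that was also normalized, in a way that no label states. Per the submitters' processing notes, DESeq2 1.18.1 is named for the gonad and oxidation sets, with RSEM 1.3.0, STAR 2.5.0a and Trimmomatic 0.35 in addition for the mRNA. No source used here gives the small RNA aligner or the genome build, so no coordinates are printed. Small RNAs were cut from gels and treated with polyphosphatase, and mRNA libraries were rRNA-depleted and directional, per the labels' protocols.

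log2(value + 1) was fitted with limma 3.58.1 (trend) in R 4.3.3 for features whose mean reached 10, with Benjamini-Hochberg adjustment over all features of a table and calls under 0.05. This scale understates changes of low features. Intervals are 95%. Each genotype of the oxidation set has a table normalized by itself, and the genotypes were compared by the effects within each. In the small RNA tables of gonads and oxidation, 100% of values were whole reads times 1 factor for each library (tolerance 0.1). edgeR 4.0.16 and DESeq2 1.42.0 were run on these reads as alternatives. Values of the mRNA table were whole for 56.6% to 58.2%, so no count test was run on it. Scripts were tested on simulated data. Scaling to CSR-1 loci or to germline markers was added after seeing the data.

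All 10 genes are named in each comparison, with the called genes of each pathway list or up to 3 of lowest adjusted p, and the 3 genes most like the mRNA mean. The genes and lists were chosen with earlier results of these data known. Gene symbols came from RefSeq names (WBcel235). syn-4, mat-2, cpg-5 and cpg-6 did not match. Other small RNA tables of the series list none of the 10 genes, so the planned stage and embryo fits were not run.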

Additional observations from a re-analysis of the deposited data

How the results depend on the processing

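All 10 mRNAs were lower in henn-1 gonads under every setting tried except scaling to germline markers (6 of 10). The count of 8 called was 9 with TMM factors, 6 with library totals, 7 without a filter, 2 to 6 on leaving out 1 library, 2 without both sperm-rich libraries and 0 scaled to germline markers, where 4 genes turned positive, egg-3 (0.11), egg-2 (0.032), egg-1 (0.018) and chs-1 (0.011); by construction that scaling follows other oocyte genes. Genes called lower over the table numbered 1082, with 675 by library totals, 57 by germline markers and 434 to 1112 without 1 library. Without both sperm-rich libraries they numbered 584. The 4 genes called in gonad 22G-RNAs became 9 with TMM factors, 7 with library totals, 9 with edgeR, 7 with DESeq2 and 3 to 4 without 1 library. CSR-1 loci called lower went from 179 to 1643 with TMM factors, 420 with totals, 1013 with edgeR and 621 with DESeq2. They numbered 117 to 156 without 1 library. On oxidation, 7 to 8 (wild type) and 6 to 7 (rde-1) were called without 1 library. In the same fits, 80.9% to 93.7% (wild type) and 38.9% to 70.3% (rde-1) of CSR-1 loci were called lower. Scaled to CSR-1 loci, 2 and 1 were called, all higher. The signs of cpg-3 (1.80 and 1.27), egg-3 (1.22 in wild type, positive in rde-1 too) and chs-1 (0.14 and 0.15) reversed, since the class itself fell. The genotype difference stayed at 0 under each alternative. The HRDE-1 count of 6 was 3 with a pseudocount of 5.

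No pairing of samples by replicate number was shown, though 3 libraries per group cannot exclude one. The correlations of same-numbered libraries were 0.20, -0.60 and -0.45 for mRNA and -0.12, 0.12 and -0.04 for gonad small RNA. On oxidation they were 0.03 to 0.06 in wild type and 0.01 to 0.21 in rde-1. There, 3 of 3 wild type numbers correlated best with their own, a hint only. With the replicate block the counts were 8, 4, 7, 7 and 0, with egg-1 mRNA called (adjusted p = 0.0466) and egg-2 not (0.0599). edgeR and DESeq2 were not run on the mRNA table, and the stage and embryo alternatives were not run. Oxidized libraries held as few as 11 reads of egg-3 in rde-1 and 16 of egg-1 in wild type, which limits both genes.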
